A study of Mus musculus with 24 samples.

Results

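The collagen and matrix genes described here are 38 genes, of which most encode collagens, proteoglycans and other matrix proteins and 4 are further genes of the fibroblasts in the covering of the brain. The 38 were chosen with earlier results of these data known. The platform annotation gives each symbol to at least 1 probe set that names no other gene. All 38 were measured, through 79 of the 45037 probe sets tested, and they make up 38 of the 18193 genes of the arrays. They comprise 6 fibrillar collagens, 6 basement membrane collagens, 5 chains of collagens VI and VIII, 5 fibril-associated or transmembrane collagens, 5 small leucine-rich proteoglycans, 7 matrix glycoproteins or crosslinking genes, and 4 other genes of meningeal fibroblasts. RNA came from C57BL/6 wild-type male mice of 6 to 8 weeks. The CMS group received chronic mild stress, an unpredictable series of stressors given in the same order to all of its mice on 6 days a week for 4 weeks, and the control group received none. The amygdala (Amy), hippocampus (Hippo), cerebral cortex (CC) and prefrontal cortex (PFC) were dissected and each was measured on 3 CMS and 3 control arrays, 24 in all. The comparison asks whether the matrix genes differed between CMS and control tissue of an area. Values are log2 expression relative to the median of the same probe set over all arrays, so that 0 is the middle of the 24 arrays and levels of different genes cannot be compared. Where several probe sets measure a gene, their mean is used.

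Fibrillar collagens form the cables of connective tissue, and collagen I, III and V chains are made in the brain mostly by fibroblasts of the meninges and of the larger vessels. Collagen IV chains form the network of the basement membrane under the endothelium and the pia, with collagens XV and XVIII at its edge. Small leucine-rich proteoglycans such as decorin, lumican, fibromodulin, osteoglycin and biglycan bind collagen fibrils and growth factors. The name meningeal was set against 18 markers of leptomeningeal and arachnoid cells, but since the values are centred, whether those markers are present or absent in an area cannot be read, only how they differ between arrays.

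Promoters are shown for 4 genes. Ogn (osteoglycin) and Fmod (fibromodulin) had CMS differences of opposite sign in Amy and Hippo, and Col8a1 and Col8a2 encode the chains of collagen VIII that were both lower in CMS CC. Each sequence is from RefSeq (GRCm38.p6) on the strand of the gene, with 250 bases before the annotated start and 50 after it. Capitals mark matches on either strand to TATAAA, known as the TATA box, to the CCAAT motif, and to GGGCGG, known as the GC box. The windows are chr13:49607765-49608064 (plus strand) for Ogn, chr1:134037004-134037303 (plus strand) for Fmod, chr16:57754688-57754987 (minus strand) for Col8a1 and chr4:126286544-126286843 (plus strand) for Col8a2.
Ogn: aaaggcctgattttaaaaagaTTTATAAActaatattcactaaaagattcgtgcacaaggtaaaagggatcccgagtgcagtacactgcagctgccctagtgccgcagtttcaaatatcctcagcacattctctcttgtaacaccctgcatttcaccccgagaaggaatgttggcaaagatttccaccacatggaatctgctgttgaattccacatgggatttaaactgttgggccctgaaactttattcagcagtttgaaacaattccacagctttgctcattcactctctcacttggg
Fmod: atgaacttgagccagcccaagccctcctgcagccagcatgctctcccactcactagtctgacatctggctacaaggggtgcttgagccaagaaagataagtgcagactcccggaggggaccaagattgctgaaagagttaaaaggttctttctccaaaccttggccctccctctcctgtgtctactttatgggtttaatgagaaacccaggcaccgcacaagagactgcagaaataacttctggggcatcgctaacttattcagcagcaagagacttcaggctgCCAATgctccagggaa
Col8a1: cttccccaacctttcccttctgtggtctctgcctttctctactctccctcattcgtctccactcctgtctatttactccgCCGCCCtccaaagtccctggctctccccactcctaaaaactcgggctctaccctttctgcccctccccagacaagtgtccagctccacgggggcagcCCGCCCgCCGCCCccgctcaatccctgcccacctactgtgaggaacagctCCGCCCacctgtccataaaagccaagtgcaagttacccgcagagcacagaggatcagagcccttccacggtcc
Col8a2: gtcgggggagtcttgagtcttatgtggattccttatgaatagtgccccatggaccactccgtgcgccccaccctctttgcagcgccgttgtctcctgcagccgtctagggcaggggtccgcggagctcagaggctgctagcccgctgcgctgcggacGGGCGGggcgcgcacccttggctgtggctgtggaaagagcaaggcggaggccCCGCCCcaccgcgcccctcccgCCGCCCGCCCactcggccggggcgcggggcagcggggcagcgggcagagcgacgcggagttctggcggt
The Ogn window held TATA boxes at bases 22 and 24, which overlap on opposite strands, and no GC box. The Fmod window held 1 CCAAT box, at base 285, after the annotated start. The Col8a1 window held 4 GC boxes, at bases 81, 178, 185 and 228, and the Col8a2 window held 4, at bases 158, 210, 232 and 236, the last pair overlapping. Promoters of 28 of the 38 genes were counted, in 34 windows. This count left out 1 chromosome, a filter that was not applied to the count over all promoters. Of the 34 windows, 17 (50.0%) held a GC box, 14 (41.2%) a CCAAT box and 4 (11.8%) a TATA box. Of all 32851 promoters in the table, 35.7% held a GC box, 37.4% a CCAAT box and 13.6% a TATA box. A match describes the letters of the window and is not evidence of a bound factor.

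The arrays of an area differed by treatment in measures other than brain genes. The hybridisation control probe sets differed between CMS and control by 0.80 in Amy, -0.37 in Hippo, -0.15 in CC and 0.31 in PFC, and the poly-A controls, added during labelling, by 0.13, -0.091, -0.44 and 0.58 in the same order, with no overlap of arrays. The signal of 3' over 5' probe sets, which rises with RNA degradation, differed for actin by 0.095 in Amy, -0.052 in Hippo, -0.60 in CC and -0.20 in PFC, and for Gapdh by 0.13, -0.064, -0.16 and 0.011. Arrays of the treatments overlapped in these ratios for Gapdh in PFC alone. Markers of neighbouring tissue also moved. Of 12 choroid plexus markers, 11 were lower in CMS CC and 5 in CMS PFC, while thalamus markers were higher in CMS Hippo (9 of 12), striatum markers in CMS Amy (9 of 10) and CC (10 of 10) and nasal epithelium markers in CMS PFC (5 of 7). Their part in the results that follow was not tested. The median SD of a member within a group of 3 arrays was 0.054 to 0.12.

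Across the 4 areas, CMS differences of the collagen and matrix genes were mostly modest. Only Mgp and Col8a2, both in CC, passed limma's adjusted p and differed over 2-fold. At an adjusted p under 0.05 alone, 13 of the 38 were higher and 4 lower in CMS Amy, 4 higher and 6 lower in Hippo, 6 higher and 3 lower in CC, and 7 higher and 3 lower in PFC. The share of all genes past that p was 10.5% higher and 8.84% lower in Amy, 4.66% and 24.9% in Hippo, 5.95% and 3.99% in CC, and 4.45% and 3.92% in PFC. The members' shares higher in CMS were 34.2% in Amy, 10.5% in Hippo, 15.8% in CC and 18.4% in PFC. Their shares lower were 10.5%, 15.8%, 7.89% and 7.89%, in the same order.

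Of the 38, 13 passed in no area. They were the fibrillar collagens Col1a1, Col3a1, Col5a1 and Col5a2, the basement membrane collagens Col4a5, Col15a1 and Col18a1, Col6a3, the fibril-associated Col12a1, the glycoprotein Fbln2, the collagen crosslinking enzyme Lox, and Slc6a13 and Serpinf1. Their 52 differences ran from -0.48 (Col3a1 in Hippo) to 0.80 (Col6a3 in Hippo), and 47 of them were under 0.5 in size. Dcn, Ogn and Sparc passed in all 4 areas. Dcn, Lum, Fmod, Ogn and Sparc passed in both directions in different areas.

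**Figure D1:**
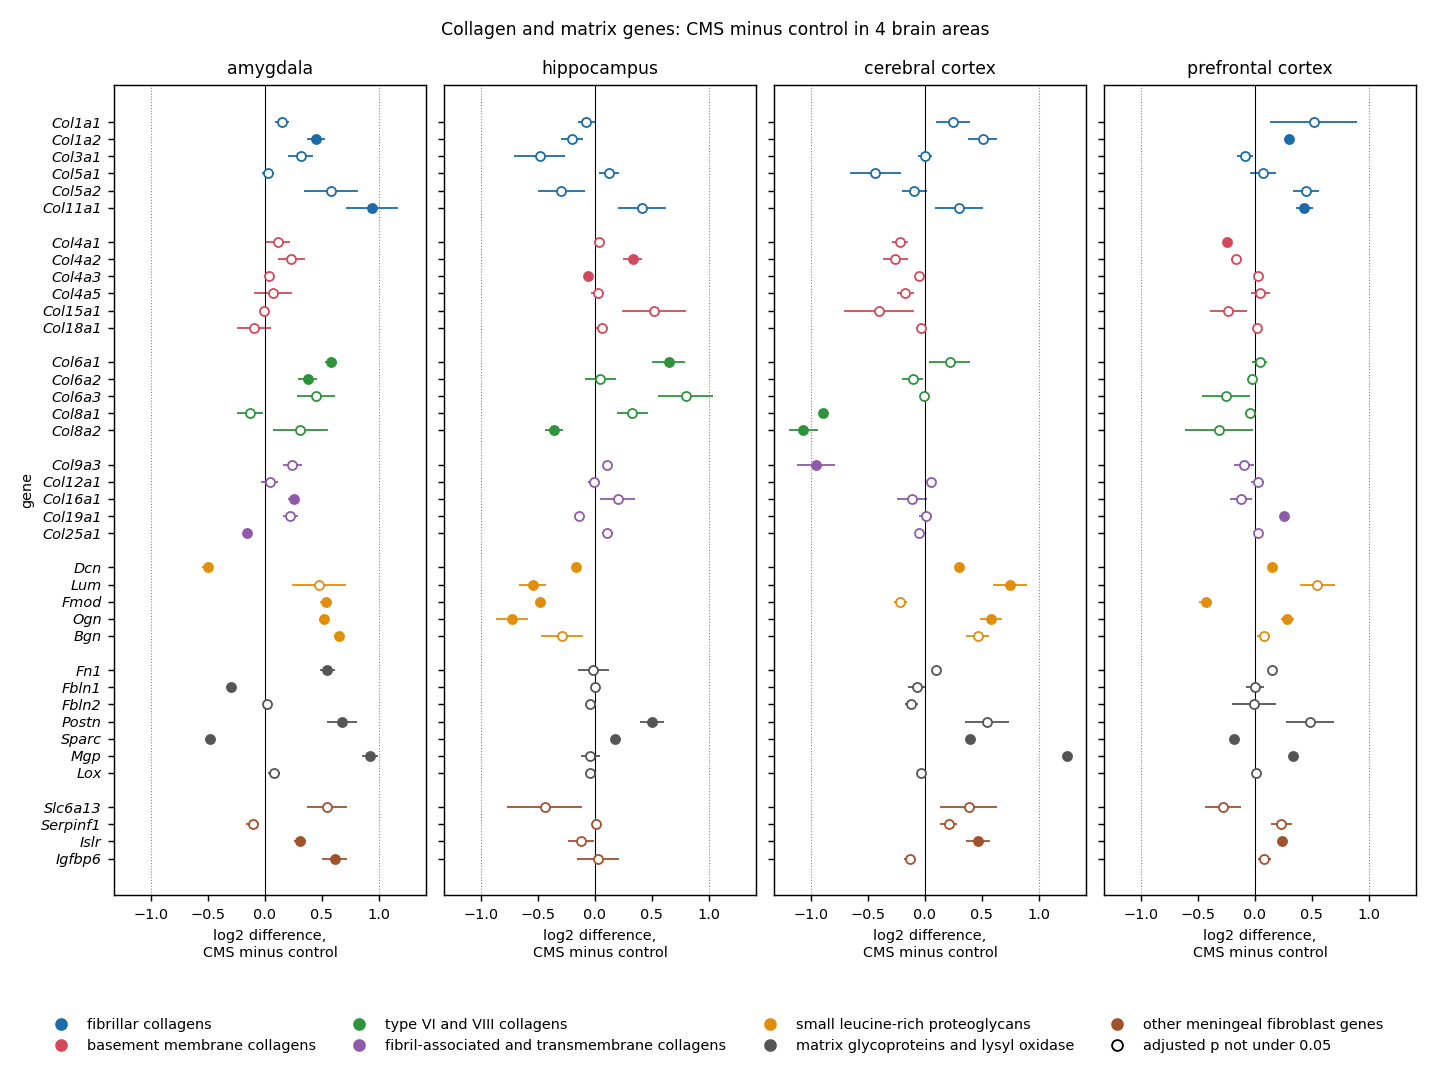
CMS minus control difference on the log2 scale (horizontal axis) with its standard error for each of the 38 collagen and matrix genes in the 4 areas, 3 arrays per treatment, with filled points for limma adjusted p under 0.05. The points of Amy lie mostly to the right of 0, with a median of 0.25, and the proteoglycans of Hippo lie to the left, with a median of -0.48.

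In Amy, matrix genes of several kinds were higher in CMS mice. In such bulk tissue, more or fewer cells of a type and more or less RNA per cell cannot be told apart. The fibrillar collagens Col1a2 and Col11a1, the collagen VI chains Col6a1 and Col6a2, the proteoglycans Bgn, Fmod and Ogn, and the glycoproteins Mgp, Postn and Fn1 rose, by 0.38 to 0.94 on the log2 scale. Dcn, Sparc, Fbln1 and Col25a1 fell. None of the 6 basement membrane collagens passed the test. The median difference over the 38 genes was 0.25, against 0.022 over all genes, and 30 of the 38 were positive. By group, 2 of 6 fibrillar collagens rose (median 0.38), 2 of 5 collagen VI and VIII chains rose (0.38), and 3 of 5 proteoglycans rose while 1 fell (0.52). The basement membrane collagens had a median of 0.054.

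Mgp encodes matrix Gla protein, an inhibitor of calcification made by vascular and meningeal cells. Its log2 values in Amy were 1.05, 0.80 and 0.87 on the CMS arrays and -0.061, -0.031 and 0.029 on the control arrays. The groups were far apart, and the difference was 0.92 (SE 0.071, limma adjusted p = 0.00314). Biglycan, Bgn, had 0.72, 0.60 and 0.62 on the CMS arrays and 0.028, -0.0095 and -0.021 on the control arrays. Each CMS array was above each control array, with a difference of 0.65 (SE 0.039, limma adjusted p = 0.00178). Fmod, whose protein regulates fibril diameter, had 0.74, 0.84 and 0.83 on the CMS arrays and 0.28, 0.18 and 0.34 on the control arrays, a difference of 0.54 (SE 0.053, limma adjusted p = 0.00523). Ogn had 1.50, 1.59 and 1.58 on the CMS arrays and 0.99, 1.02 and 1.12 on the control arrays, a difference of 0.52 (SE 0.043, limma adjusted p = 0.00378), and for both genes the CMS arrays lay above the control arrays.

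Among the collagens, Col6a1, a chain of the beaded filaments around cells, had 0.49, 0.58 and 0.42 on the CMS arrays and -0.13, -0.0039 and -0.12 on the control arrays in Amy and rose by 0.58 (SE 0.055, limma adjusted p = 0.00483). Col11a1, a minor chain that nucleates fibrils, had 1.76, 1.04 and 1.83 on the CMS arrays and 0.66, 0.56 and 0.59 on the control arrays. Its CMS arrays lay above the control arrays but spread over 1.04 to 1.83, and the difference was 0.94 (SE 0.23, limma adjusted p = 0.0489). Col1a2, the second chain of collagen I, rose by 0.45 (SE 0.078, limma adjusted p = 0.0209), whereas its partner Col1a1 differed by 0.15 (adjusted p = 0.146 by limma). Col3a1 differed by 0.31 and Col5a2 by 0.58, and neither passed. The fibril-associated Col16a1 rose by 0.25 and the neuronal transmembrane collagen Col25a1 fell by 0.15.

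The glycoproteins of Amy moved in both directions. Fn1, fibronectin, had 0.55, 0.34 and 0.33 on the CMS arrays and -0.15, -0.18 and -0.094 on the control arrays and rose by 0.55 (SE 0.067, limma adjusted p = 0.00889). Postn, periostin, a secreted protein of collagen-rich tissue, rose by 0.68. Sparc, a collagen-binding protein also made by astrocytes and endothelium, had 0.27, 0.19 and 0.15 on the CMS arrays and 0.66, 0.68 and 0.72 on the control arrays. Its CMS arrays were below all control arrays, with a difference of -0.48 (SE 0.036, limma adjusted p = 0.00291). Dcn, decorin, had 0.21, 0.037 and 0.15 on the CMS arrays and 0.66, 0.63 and 0.61 on the control arrays, again with no overlap, and a difference of -0.50 (SE 0.049, limma adjusted p = 0.00523). Fbln1, fibulin 1, fell by 0.30. Of the meningeal fibroblast genes, Igfbp6, which binds insulin-like growth factor, rose by 0.61 and Islr by 0.31, while Slc6a13, a transporter of GABA and taurine, differed by 0.55 (adjusted p = 0.0946 by limma).

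As the mean of its probe sets, no member was called over 2-fold in Amy by limma or by the methods' t-test. At an unadjusted p under 0.05, 23 of the 38 passed in limma and 21 in the methods' t-test. The share of all genes called over 2-fold was 0.583%. Leaving out 1 array left 7 members higher without control replicate 1 and 8 without control replicate 2 or 3, against 10 to 12 without a CMS array, and 2 lower without control replicate 2 or 3. Of all genes, 3.47% to 3.92% were higher without a control array and 6.74% to 10% without a CMS array. The shares lower were 4.37% and 4.73% without control replicate 2 and 3. Of the 17 members past the adjusted p, 8 passed whichever array was left out, namely Bgn, Col6a1, Dcn, Fmod, Fn1, Mgp, Ogn and Sparc. Among these, Fmod did not pass with only probe sets without x, s or a suffix. Fn1 did not pass with the replicate number as a block. On single probe sets, 2 of 6 passed for Fmod and 1 of 2 for Fn1. Without CMS replicate 2, Col11a1 was called over 2-fold at 1.19. Of the 18 leptomeningeal and arachnoid markers, 14 were higher in CMS Amy and none lower, led by Foxc2 (1.89), Foxd1 (1.24) and Slc47a1 (1.15). Their mean per array ran from 0.77 to 0.88 on the CMS arrays and 0.15 to 0.19 on the control arrays. Endothelial markers were also higher (7 of 12, with Vwf at 2.62), and striatum markers for 9 of 10, with means of 1.62 to 1.66 on the CMS arrays and 1.23 to 1.24 on the control arrays. Hippocampus markers were lower for 4 of 10 and higher for 1, led by C1ql2 (-2.82) and Fibcd1 (-1.81), with means of -0.27 to -0.14 on the CMS arrays and 0.37 to 0.44 on the control arrays. Thalamus and habenula markers were lower for 4 of 12, among them Lhx9 (-1.83), and higher for 2, with means of 0.071 to 0.14 on the CMS arrays and 0.37 to 0.40 on the control arrays. Of 12 choroid plexus markers, 2 were higher, among them Kcnj13 (1.05), and 1 was lower, Ttr (-3.70). Of 8 neutrophil markers, 2 rose, with S100a8 at 2.97. The part of these lists in the matrix differences was not tested.

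In Hippo, proteoglycans were lower in CMS mice. Ogn, Lum, Fmod and Dcn fell, and all 5 proteoglycans had negative differences, with a median of -0.48, in an area where 24.9% of all genes were lower. Among the collagens, Col6a1 and Col4a2 were higher, Col8a2 and Col4a3 were lower and none of the 6 fibrillar collagens passed the test. Postn and Sparc were higher. The median over the 38 genes was -0.0029, against -0.048 over all genes.

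Ogn had log2 values of -1.74, -2.17 and -1.96 on the CMS arrays and -1.03, -1.28 and -1.38 on the control arrays in Hippo. All CMS arrays were below all control arrays, with a difference of -0.73 (SE 0.14, limma adjusted p = 0.0274). Lum, lumican, had -0.041, 0.31 and -0.0036 on the CMS arrays and 0.57, 0.55 and 0.77 on the control arrays, a difference of -0.54 (SE 0.12, limma adjusted p = 0.0327). Fmod had -1.46, -1.44 and -1.50 on the CMS arrays and -0.91, -0.97 and -1.08 on the control arrays, a difference of -0.48 (SE 0.048, limma adjusted p = 0.00871). The groups were separate for both genes. Dcn was lower by a smaller amount, -0.16 (SE 0.023, limma adjusted p = 0.0154), and Bgn differed by -0.29 without passing (adjusted p = 0.261 by limma).

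Col6a1 had -0.48, -0.67 and -0.35 on the CMS arrays and -1.24, -1.32 and -0.89 on the control arrays in Hippo, with each CMS array above each control array, and rose by 0.65 (SE 0.14, limma adjusted p = 0.033). Its partner Col6a3 had 0.28, 0.99 and 1.16 on the CMS arrays and 0.015, 0.027 and 0.0033 on the control arrays. The control arrays lay close together and the CMS arrays were all higher but scattered, so that a difference of 0.80 did not pass (adjusted p = 0.0579 by limma). Col4a2, a chain of the main basement membrane collagen, rose by 0.33 (SE 0.082, limma adjusted p = 0.0406), while its partner Col4a1, whose gene lies head to head with it, differed by 0.037. Col4a3 fell by 0.057, close to the median of all genes, and was measured only by 2 probe sets, both with an SD under 0.1 over all arrays. Col8a2 had 0.77, 0.55 and 0.75 on the CMS arrays and 0.94, 1.07 and 1.14 on the control arrays and a difference of -0.36 (SE 0.081, limma adjusted p = 0.0344), and Col8a1 differed by 0.33 the other way without passing. Postn rose by 0.50 and Sparc by 0.17 (SE 0.021, limma adjusted p = 0.0113).

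As the mean of its probe sets, no member was called over 2-fold in Hippo by limma or by the methods' t-test. In each, 14 of 38 passed an unadjusted p under 0.05. The share of all genes called was 0.253%. By limma on single probe sets, 2 of the 79 were called there, of Fmod and Ogn, both lower. The paper lists Fmod among the genes it found lower in the CMS hippocampus. Only Fmod and Sparc, of the 10 members past the adjusted p, passed whichever array was left out. Leaving out control replicate 3 left 4 members higher and 6 lower, and leaving out any other array, CMS or control, left 1 to 2 higher and 1 to 2 lower. Of all genes, 5.93% were higher and 27.6% lower without control replicate 3. With any other array left out, 1.43% to 2.35% of all genes were higher and 3.61% to 6.53% lower. Without CMS replicate 1, Col6a3 was called at 1.06. When each array was centred on its median, 2 members were higher and 1 lower, against 3.88% and 6.23% of all genes. Without this centring, 24.9% of all genes were lower in CMS Hippo. Of the leptomeningeal and arachnoid markers, 3 of 18 (16.7%), a smaller share, were lower and none higher, led by Gjb2 (-1.06). Their mean per array ran from -1.16 to -1.05 on the CMS arrays and -0.97 to -0.88 on the control arrays. Mural cell markers were lower for 4 of 10 (40%), among them Myh11 (-0.18) and Acta2 (-0.17). Endothelial markers were higher for 4 of 12 (33.3%), with Vwf at 1.21, and lower for 1. Choroid plexus markers were higher for 3 of 12 (25%) and lower for 0, where 4.66% of all genes were higher. Thalamus and habenula markers were higher for 9 of 12, led by Tnnt1 (2.33), with means of 0.86 to 0.93 on the CMS arrays and -0.19 to -0.10 on the control arrays. The part of these lists in the matrix differences was not tested.

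In CC, Mgp and the proteoglycans Lum, Ogn and Dcn were higher in CMS mice, and both chains of collagen VIII were lower together with Col9a3. All 6 basement membrane collagens had negative differences, with a median of -0.19, but none passed. No collagen rose. Over the 38 genes the median was -0.019, against -0.031 over all genes.

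Mgp had log2 values of 0.64, 0.58 and 0.66 on the CMS arrays and -0.61, -0.59 and -0.67 on the control arrays in CC. Replicates of a group agreed closely, and the difference of 1.25 (SE 0.036, limma adjusted p = 0.000302) was a 2.38-fold rise, called by limma and the methods' t-test. Lum had -0.13, 0.26 and 0.19 on the CMS arrays and -0.88, -0.48 and -0.57 on the control arrays, and rose by 0.75 (SE 0.15, limma adjusted p = 0.0369). Ogn had 0.34, 0.24 and 0.51 on the CMS arrays and -0.14, -0.14 and -0.38 on the control arrays and rose by 0.58 (SE 0.099, limma adjusted p = 0.0253). In both genes the lowest CMS array was above the highest control array. Dcn had -0.31, -0.21 and -0.26 on the CMS arrays and -0.55, -0.53 and -0.60 on the control arrays and rose by 0.30 (SE 0.036, limma adjusted p = 0.0104), and Sparc had -0.32, -0.28 and -0.30 on the CMS arrays and -0.71, -0.70 and -0.69 on the control arrays and rose by 0.40 (SE 0.023, limma adjusted p = 0.0015). Bgn had -0.14, -0.14 and -0.12 on the CMS arrays and -0.55, -0.42 and -0.82 on the control arrays, a difference of 0.46 just short of the threshold (adjusted p = 0.0506 by limma). Fmod differed by -0.21 and did not pass.

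Collagen VIII is a short-chain network collagen made by several cell types, among them endothelium, smooth muscle and corneal cells. Col8a2 had -0.34, -0.19 and -0.33 on the CMS arrays and 1.00, 0.81 and 0.51 on the control arrays in CC. The CMS arrays were all below the control arrays, which were spread over 0.51 to 1.00, and the difference was -1.07 (SE 0.13, limma adjusted p = 0.0105), a 2.09-fold decrease. Col8a1 had 0.035, -0.047 and -0.069 on the CMS arrays and 0.89, 0.82 and 0.89 on the control arrays, a tighter separation, with a difference of -0.89 (SE 0.038, limma adjusted p = 0.000839). Col9a3, a chain of a fibril-associated collagen best known from cartilage, had -0.59, -1.16 and -0.64 on the CMS arrays and 0.049, 0.27 and 0.16 on the control arrays and a difference of -0.95 (SE 0.17, limma adjusted p = 0.0268). The fibrillar chains did not pass, although Col1a2 differed by 0.51 (adjusted p = 0.071 by limma), and Islr rose by 0.47.

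The share of all genes called over 2-fold in CC was 0.357%, and 2 of the 38 members were called. Without control replicate 1, Col8a2 differed by -0.95, no longer over 2-fold, and only Mgp stayed called. The number of members higher was 2 without CMS replicate 3 and 3 without CMS replicate 2 or control replicate 1. Of all genes, 2.45%, 2.44% and 3.44% were higher in these fits, in the same order. Col8a1, Col8a2, Mgp and Sparc, 4 of the 9, passed the adjusted p whichever array was left out. After quantile normalization 4 members were called over 2-fold, against 76 of all 18193 genes. Of 12 choroid plexus markers, 11 were lower in CMS CC, led by Ttr (-6.91), Kcne2 (-4.36) and Folr1 (-4.00), and their mean per array ran from -1.20 to -1.15 on the CMS arrays and 1.57 to 1.70 on the control arrays. Of the leptomeningeal and arachnoid markers 6 of 18 were higher, led by Slc47a1 (1.77), with means of 0.13 to 0.22 on the CMS arrays and -0.29 to -0.12 on the control arrays. Striatum markers were higher for 10 of 10, led by Drd2 (3.02), with means of -0.89 to -0.81 on the CMS arrays and -2.62 to -2.41 on the control arrays. The part of these lists in the matrix differences was not tested.

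In PFC, differences were small. The fibrillar collagens Col1a2 and Col11a1 rose, with Mgp, Ogn, Dcn, Islr and the fibril-associated Col19a1, while Fmod, Col4a1 and Sparc fell. The median over the 38 genes was 0.026, against 0.018 over all genes, and that over the 6 fibrillar collagens was 0.37.

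Col1a2 had log2 values of 0.88, 0.87 and 0.88 on the CMS arrays and 0.48, 0.65 and 0.60 on the control arrays in PFC. The CMS arrays were nearly equal and above each control array, with a difference of 0.30 (SE 0.045, limma adjusted p = 0.0221). Col11a1 had 0.43, 0.43 and 0.59 on the CMS arrays and -0.089, 0.080 and 0.15 on the control arrays and rose by 0.43 (SE 0.077, limma adjusted p = 0.0337). Col1a1 differed by 0.52 but ranged from 0.71 to 1.96 on the CMS arrays and 0.32 to 1.12 on the control arrays and did not pass (adjusted p = 0.43 by limma). Mgp had 0.37, 0.41 and 0.37 on the CMS arrays and -0.029, 0.054 and 0.11 on the control arrays and rose by 0.34 (SE 0.040, limma adjusted p = 0.0134). Fmod had 0.17, 0.14 and -0.018 on the CMS arrays and 0.51, 0.58 and 0.51 on the control arrays, with all CMS arrays below all control arrays, and a difference of -0.43 (SE 0.058, limma adjusted p = 0.0173). Col4a1, a basement membrane chain, had 0.089, 0.14 and 0.039 on the CMS arrays and 0.33, 0.32 and 0.34 on the control arrays, also without overlap, and a difference of -0.24 (SE 0.029, limma adjusted p = 0.0134). Sparc differed by -0.18 (SE 0.028, limma adjusted p = 0.0239) and Ogn by 0.29 (SE 0.060, limma adjusted p = 0.0497).

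No member was called over 2-fold in PFC by limma or by the methods' t-test, against 0.247% of all genes by limma. An unadjusted p under 0.05 was reached by 15 of 38 in limma and 14 in the methods' t-test, which gave 0 higher and 1 lower after adjustment. None of the 10 members past the adjusted p in PFC passed whichever array was left out. Leaving out 1 array left 0 higher without CMS replicate 2, 1 without CMS replicate 1, 2 without CMS replicate 3 or control replicate 1, and 3 without control replicate 2 or 3. It left 1 lower without CMS replicate 1 or 2 or control replicate 2, and 2 otherwise. Of all genes, 1.48% to 3.13% were higher and 1.27% to 2.51% lower in these fits. After quantile normalization 6 were higher and 1 lower, against 3.42% and 3.42% of all genes. Nasal epithelium markers were higher in CMS PFC for 5 of 7, led by Bpifb9b (6.19), Cbr2 (3.09) and Bpifa1 (3.07). Neutrophil markers were higher for 6 of 8, led by Ngp (5.30), and Ttr was -7.15. Of the leptomeningeal and arachnoid markers, 2 of 18 were higher and 1 lower, with a median difference of 0.038. Endothelial markers were higher for 5 of 12 and lower for 0, with Vwf at 1.76. The part of these lists in the small matrix differences was not tested.

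**Figure D2:**
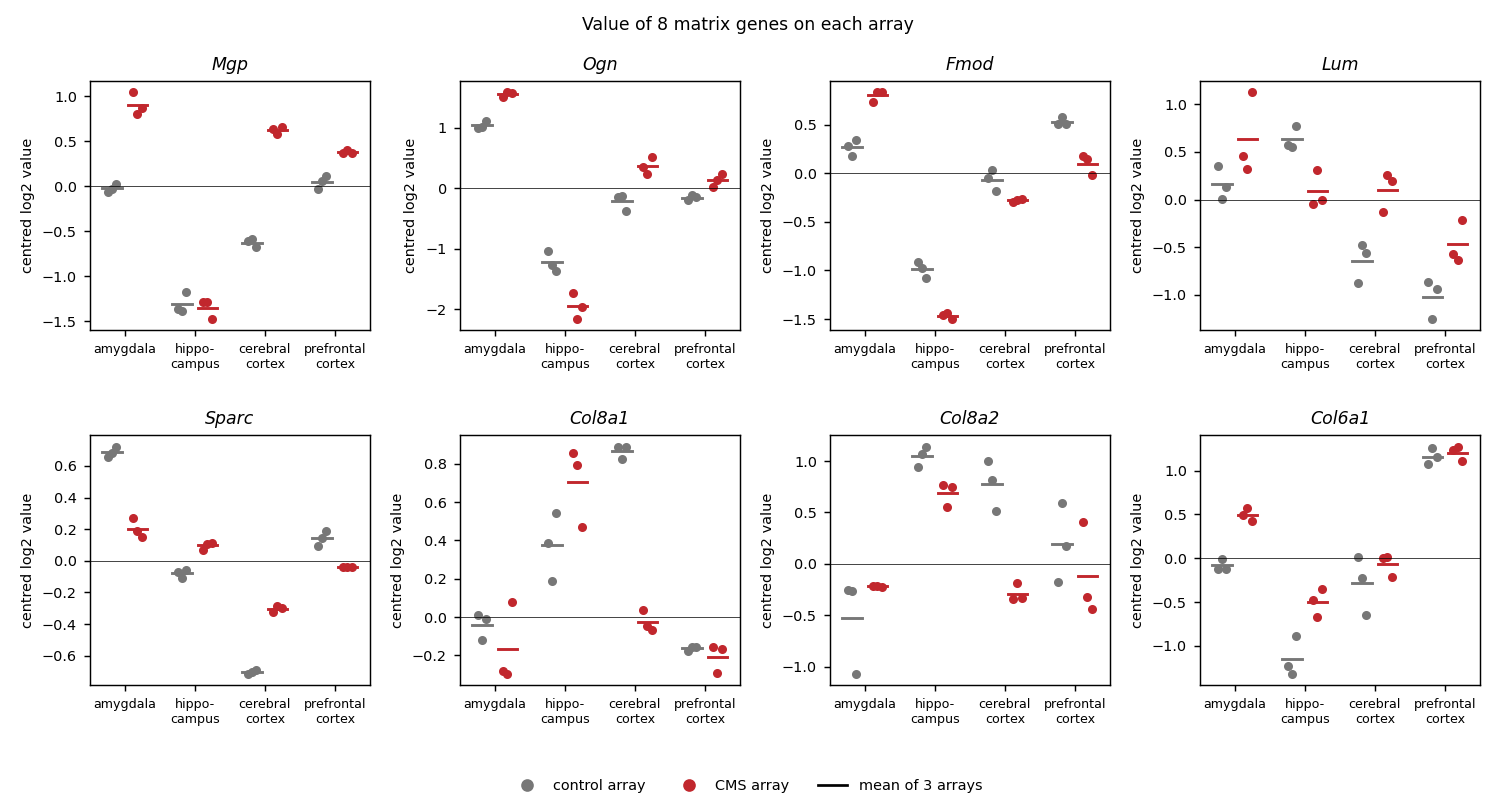
Log2 value relative to the probe set median (vertical axis) of Mgp, Ogn, Fmod, Lum, Sparc, Col8a1, Col8a2 and Col6a1 on every array of the 4 areas, CMS beside control, with bars for the mean of 3 arrays. Mgp in CC sits between 0.58 and 0.66 on the CMS arrays, above the control arrays, and Ogn lies above control in Amy and below it in Hippo.

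The CMS difference itself was compared between areas in 1 fit of all 24 arrays. It differed between areas for 8 of the 38 genes (21.1%), with an adjusted p under 0.05 and differences more than 1 apart on the log2 scale, against 2.47% of all genes. The design gives 3 mice per treatment, so areas may share mice, and the test took the arrays as independent. With same-numbered arrays of a treatment as a random block (consensus correlation -0.092) the same 8 genes passed, although no label says that the numbers mark mice. These were Mgp, Ogn, Fmod, Lum, Col8a1, Col8a2, Col9a3 and Col6a3. Col8a2 had the widest range, 1.38 between its difference in Amy (0.31) and in CC (-1.07), at an adjusted p of 0.0135 in limma. In Amy, 1 control array of Col8a2 was at -1.07 and the other control and CMS arrays were between -0.26 and -0.21. Ogn ranged over 1.31 between CC and Hippo, Lum over 1.29 between the same areas, and Mgp over 1.29, its Hippo difference being -0.040. Fmod ranged over 1.01 between Amy and Hippo. When the same-numbered array of a treatment was left out in all areas, the number of such genes was 6 to 9. Col8a2 was then lost without CMS replicate 2 or 3, Fmod without CMS replicate 3 or control replicate 1 or 2, and Col6a3 without CMS replicate 3 or control replicate 2 or 3. Sparc, though past the test in every area, ranged over less than 1 log2 unit (0.89).

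The gene values average probe sets that did not all move. Among the 79 probe sets, 15 had an SD under 0.1 over the 24 arrays, as did 34.8% of all probe sets, and they belonged to 12 of the 38 genes. Dcn is measured by 2 probe sets, of which one differed by -1.03 in Amy and the other by 0.027. In Hippo, the decrease of Fmod was largest on 1 probe set (-1.93), while its 5 other probe sets lay between -0.58 and 0.14. Ogn differed there by -1.16 and -0.29 on its 2 probe sets. In CC, Col8a1 differed by -2.20, -0.44 and -0.035 on its 3 probe sets. Col9a3 ran there from -1.91 to -0.059 on its 3 probe sets, none of which passed the adjusted p by limma. Mgp and Col8a2 have 1 probe set each. Of the 3 Sparc probe sets, 2 differed in CC by 0.96 and 0.30 and the flat one by -0.060.

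With flat probe sets left out, an alternative chosen after seeing the data, 4 members were called over 2-fold in CC, where Col9a3 (-1.40) and Col8a1 (-1.32) joined Mgp and Col8a2, and 1 in Amy, Dcn (-1.03). Of the 13577 genes then tested, 81 were called in CC and 143 in Amy. Col4a3 then had no probe set. The numbers past the adjusted p were 13 higher and 4 lower in Amy, 4 and 5 in Hippo, 7 and 3 in CC, and 7 and 3 in PFC. Of all genes then tested, the shares were 10.2% and 12.6% in Amy and 4.53% and 10.2% in Hippo. In CC they were 7.71% and 4.63%, and in PFC 5.1% and 5.13%.

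**Figure D3:**
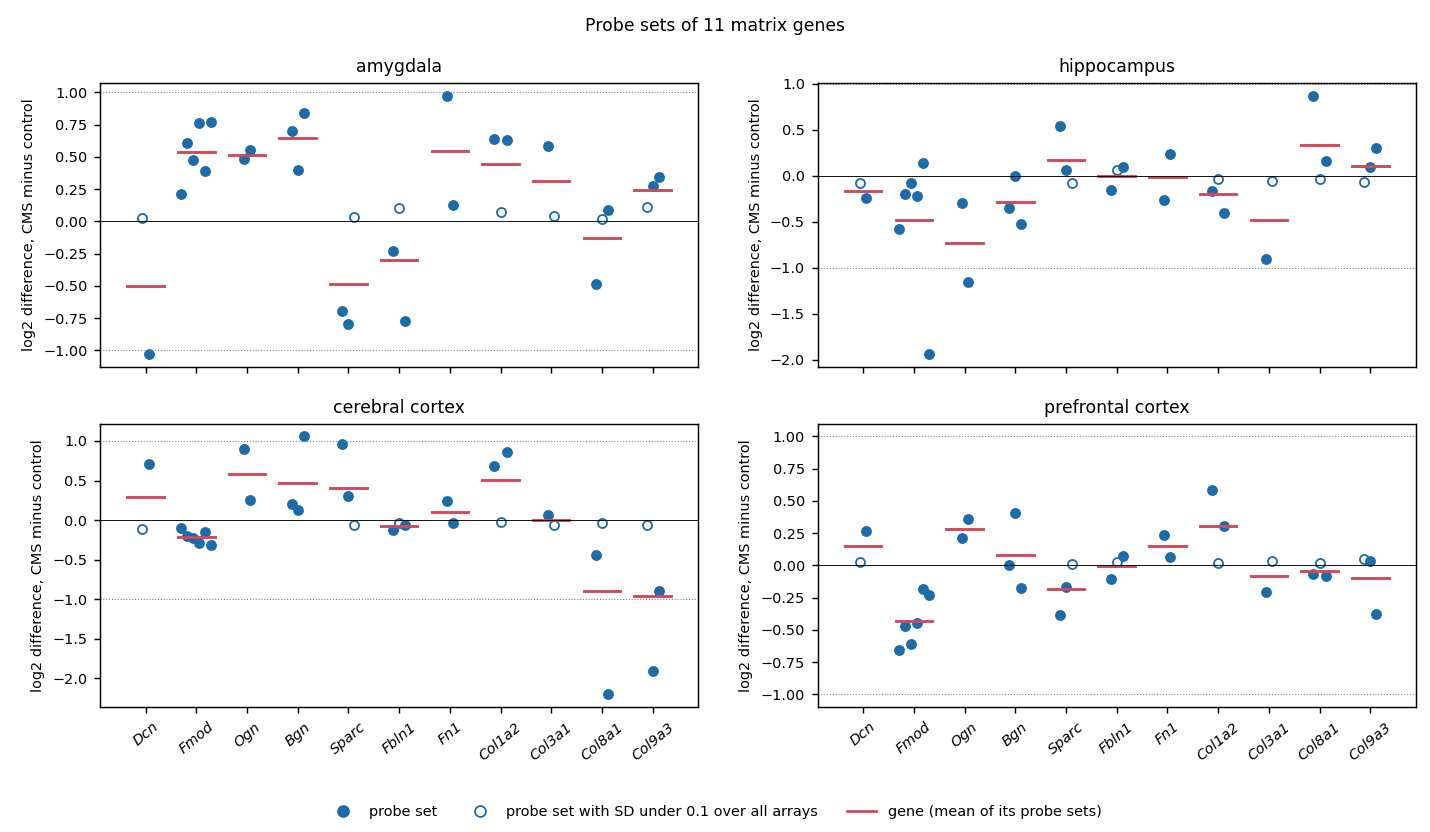
CMS minus control log2 difference (vertical axis) of each probe set of 11 collagen and matrix genes in the 4 areas, with hollow points for probe sets with an SD under 0.1 over the 24 arrays and a red bar for the gene mean. Col8a1 in CC spans -2.20 to -0.035, with a gene mean of -0.89.

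Among control mice, the levels of many of these genes differed between areas. The range of the 4 area means was over 1 log2 unit with an adjusted p under 0.05 for 21 of the 38 (55.3%), against 10.4% of all genes. Here too the areas may share mice while the test took arrays as independent, and with the replicate number as a random block, added after seeing the data, the same 21 genes passed (consensus correlation -0.13). Hippo was the lowest area for 10 of the 21 and PFC the highest for 8. Igfbp6 had the widest range, from -2.28 ± 0.34 (SD, n = 3) in Hippo to 1.17 ± 0.098 in CC. Ogn ran from -1.23 ± 0.18 in Hippo to 1.04 ± 0.066 in Amy, and Col6a1 from -1.15 ± 0.23 in Hippo to 1.16 ± 0.091 in PFC. Lum went the other way, with 0.63 ± 0.12 in Hippo and -1.02 ± 0.21 in PFC. Col8a2 was highest in Hippo (1.05 ± 0.10) and CC (0.78 ± 0.25), neighbours in order whose arrays overlap (0.94 to 1.14 and 0.51 to 1.00), and lowest in Amy (-0.53 ± 0.47). Col5a1, which sets the diameter of collagen I fibrils, was highest in CC (1.26 ± 0.43).

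**Figure D4:**
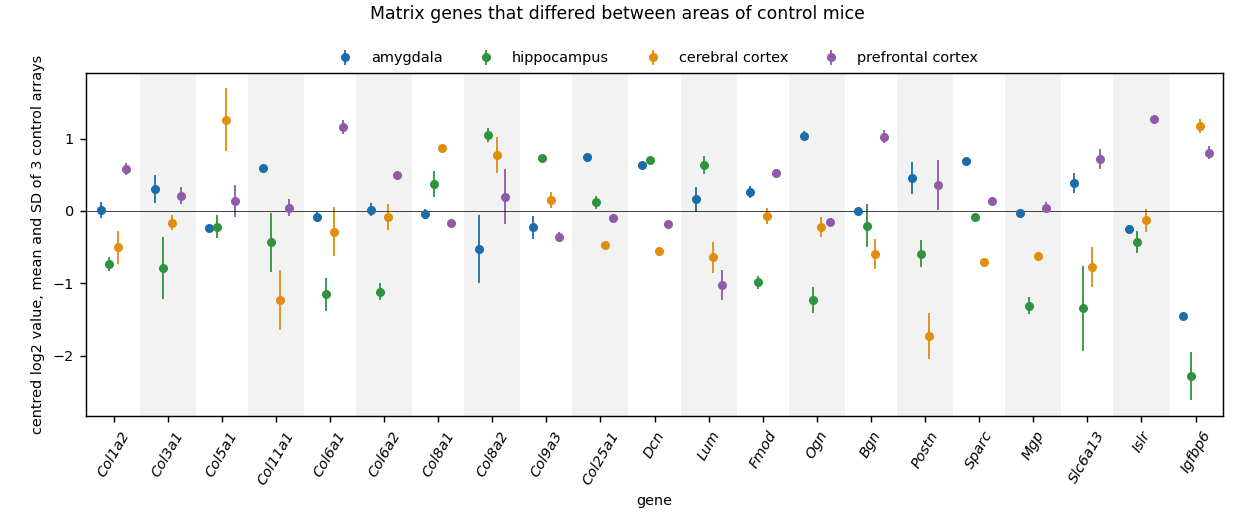
Mean log2 value relative to the probe set median in each of the 4 areas of control mice, with the SD of 3 arrays, for the 21 genes whose area means differed. Igfbp6, Ogn and Col6a1 are lowest in Hippo, and Lum and Dcn are highest there.

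Genes that make, cut or bind collagen were examined beside the matrix genes. Of 83 measured genes in 5 related lists, none was called over 2-fold in any area by limma. At an adjusted p under 0.05, 7 were higher and 12 lower in Amy, and 8 and 18 in Hippo. In CC the counts were 2 and 6, and in PFC 1 and 4. Of all genes, 10.5% were higher and 8.84% lower in Amy, and 4.66% and 24.9% in Hippo. The shares of all genes were 5.95% and 3.99% in CC and 4.45% and 3.92% in PFC. Of 21 genes for collagen synthesis, Pcolce, which enhances cleavage of the procollagen end, rose by 0.64 in Amy and fell by 0.30 in CC. Plod2, a lysyl hydroxylase, rose by 0.64 in Hippo, where Serpinh1, the collagen chaperone, was -0.35. Of 16 proteases and inhibitors, Timp4 was lower in Amy (-0.64), Hippo (-0.56) and PFC (-0.24). Timp2 was lower in Amy (-0.53) and higher in CC (0.26). Of 17 laminins and related proteins, 3 rose and 1 fell in Amy, where nidogen Nid1 was 0.24, and Lamb1 was the 1 lower in CC (-0.40). Of 15 receptors, 6 were lower in Hippo, among them Mrc2 (-0.56), which takes up collagen, and the hyaluronan receptor Cd44 was lower in Amy (-0.57). Of 14 genes of the hyaluronan matrix around neurons, 4 were lower in Amy and 5 in Hippo, the latter led by the link protein Hapln1 (-0.65).

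The mean over the 5 proteoglycans was also taken on each array. In Amy it was 0.68 to 0.86 on the CMS arrays and 0.36 to 0.46 on the control arrays, and in Hippo -0.68 to -0.63 on the CMS arrays and -0.25 to -0.18 on the control arrays. The groups did not overlap in either area. In CC it was -0.11 to 0.013 on the CMS arrays and -0.51 to -0.30 on the control arrays, and in PFC 0.12 to 0.22 on the CMS arrays and -0.015 to 0.077 on the control arrays, again without overlap. The signs of Amy and Hippo were opposite, with CMS above control in Amy and below it in Hippo. With 3 arrays against 3, an exact permutation test of a single such value cannot give a two-sided p below 0.1.

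**Figure D5:**
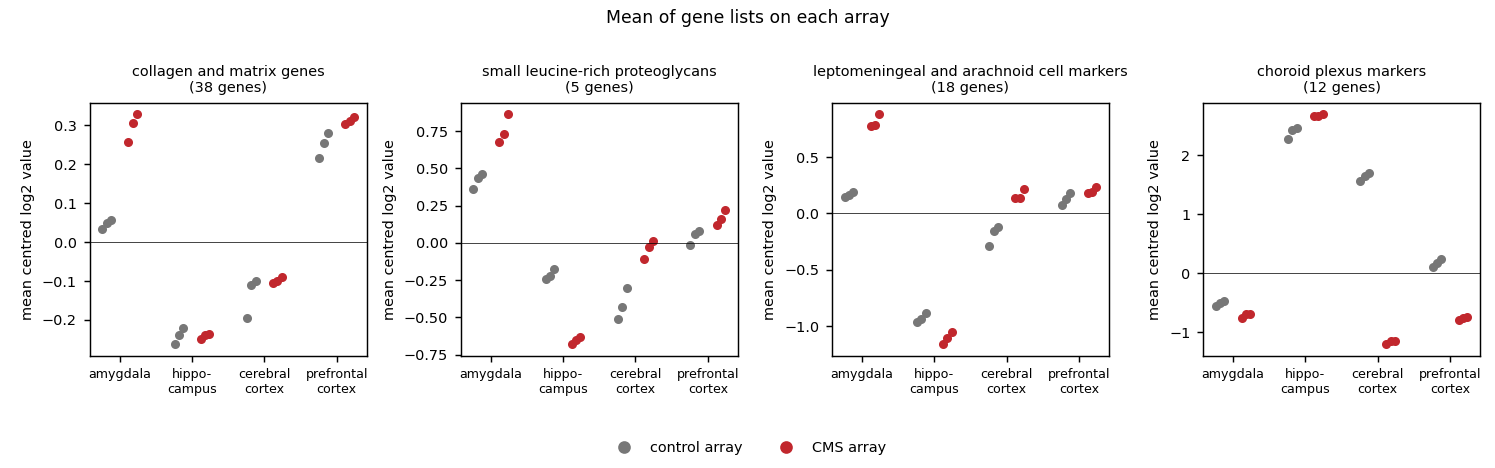
Mean centred log2 value per array (vertical axis) over the 38 collagen and matrix genes, the 5 proteoglycans, 18 leptomeningeal and arachnoid markers and 12 choroid plexus markers, CMS beside control in the 4 areas, with points placed in order of value. The proteoglycan mean is higher on CMS arrays in Amy and CC and lower in Hippo, and the leptomeningeal and arachnoid markers in Amy lie at 0.77 to 0.88 on the CMS arrays and 0.15 to 0.19 on the control arrays.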

How the data were processed

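The study hybridised RNA from 4 brain areas of CMS and control mice to Affymetrix mouse genome chips, 24 arrays in all and 3 per group. GCRMA summarization of the CEL files was done by the authors in GeneSpring GX, together with a baseline normalization (software versions: not given in the sources used here). Their deposited values are log2 values centred by probe set, with a median over all arrays of 0 (at most 5e-07 away). Levels and signal over background therefore cannot be read, and precision is limited by the number of arrays. Pooled RNA is named in the methods but independent mice in the results, and p-values measure only the spread between these samples, which may be technical. In the sample descriptions the upper end of the age range rises from sample to sample, whereas the characteristics give 6 to 8 weeks throughout. A difference in age was not tested.

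After 64 Affymetrix control probe sets were left out, 45037 were tested, of which 34945 had 1 gene symbol in the platform annotation, 932 had several and 9160 had none. Probe sets with the same single symbol were averaged, and no filter on low values was applied. Each area was fitted separately in limma (version 3.58.1, R 4.3.3), CMS against control, with Benjamini-Hochberg adjustment over 18193 genes. A gene passed at an adjusted p under 0.05 and was called where the fold change was also over 2. The text writes "rose" or "fell" for genes that passed. Differences of the CMS effect between areas, and between areas of control mice, were tested with moderated F tests that also needed a range over 1 on the log2 scale. The procedure was tested on simulated data. Figures were drawn with matplotlib (version 3.10.9) in Python 3.11.15.

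The 38 genes and the lists of related genes and markers were chosen with earlier results of these data known. All 38 may be named, those called in any area with each array's value. From other lists the up to 3 called genes with the largest change in an area were eligible for naming, or the 2 with the smallest p where none was called. Genes called only after other choices, and members shown in detail for their differences, were picked after their values were seen. The alternatives tried were quantile normalization, median centring, the methods' t-test, 1 fit of the 24 arrays together, other rules for probe sets, a filter on SD, limma's trend and robust options, array weights, the replicate number as a block, the mouse as a random block (statmod version 1.5.0), leaving out each array, and, added after seeing the data, leaving out flat probe sets and a random block in the fit of control arrays. Promoter sequences came from RefSeq (GRCm38.p6).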

Additional observations from a re-analysis of the deposited data

Results flagged for a closer look

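The CMS difference of 8 collagen and matrix genes differed between areas by a test of the difference itself (limma F test on all 24 arrays, adjusted p under 0.05). The values are the largest difference between the effects of 2 areas on the log2 scale. Among the proteoglycans, Ogn differed by 1.31 and Lum by 1.29, both between CC, where CMS was higher, and Hippo, where it was lower, and Fmod by 1.01 between Amy and Hippo. Mgp differed by 1.29 between CC and Hippo. Among the collagens, Col8a2 differed by 1.38 and Col9a3 by 1.20, both between Amy and CC, Col8a1 by 1.22 between Hippo and CC, and Col6a3 by 1.05 between Hippo and PFC. With the same-numbered array of a treatment left out in all areas, Col8a1, Col9a3, Lum, Ogn and Mgp passed each time, while Col8a2, Fmod and Col6a3 each failed at least once.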

How the results depend on the processing

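Of 46 results of single genes past the adjusted p, none changed direction under any alternative, 14 passed whichever array was left out and 10 also under every other alternative. Medians over the 38 genes, which have no test, turned positive from -0.019 in CC (median centring, the most variable probe set, and without control replicate 1 or 2) and from -0.0029 in Hippo (median centring, quantile normalization, genes above the median SD, and flat probe sets left out). Counts are given as higher, lower or called in CMS. With the most variable probe set per gene, 1 was called in Amy and 2 in Hippo, 4 were higher in PFC, 13 differed between areas, and the medians were 0.29 in Amy, -0.033 in Hippo, 0.033 in CC and 0.041 in PFC. Of all 18193 genes, 307 were then called in Amy and 123 in Hippo, against 106 and 46 with the mean of probe sets. In PFC, 3.23% of all genes were then higher. With only probe sets without x, s or a suffix, 36 members were tested. Of these, 2 were lower in Amy, 10 lower in Hippo and 4 higher in PFC (medians -0.040 in Hippo and 0.045 in PFC). The shares of all genes were 7.76%, 27% and 3.29%. Among genes above the median SD, the medians were 0.31 in Amy, -0.0032 in CC and 0.045 in PFC. With flat probe sets left out, chosen after seeing the data, 1 was called in Amy and 4 in CC (medians 0.31 and -0.0070). Of the 13577 genes then tested, 143 and 81 were called. A fit of all arrays gave 7 higher in Hippo, 6 lower in CC and 3 higher in PFC. The shares of all genes were 5.48%, 9.97% and 5.4%. Array weights gave 7 higher and 10 lower in Hippo and 6 lower in CC (median -0.027). The shares of all genes were 9.02%, 43.9% and 12%. Median centring gave 2 higher and 1 lower in Hippo and medians of 0.038 in Hippo, 0.0089 in CC and 0.0070 in PFC. Of all genes, 3.88% were then higher and 6.23% lower in Hippo. Quantile normalization gave 4 called and 5 lower in CC and 1 lower in PFC (median 0.052). Of all 18193 genes, 76 were then called and 4.78% lower in CC, and 3.42% lower in PFC. The methods' t-test gave 3 higher in CC and 0 higher and 1 lower in PFC. The shares of all genes were 2.84%, 1.61% and 1.3%. Trend and robust options gave 2 higher in PFC, against 2.46% of all genes. The cause of these moves was not tested.

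With 1 array left out at a time, the higher counts were 7 to 12 in Amy, 1 to 4 in Hippo, 2 to 5 in CC and 0 to 3 in PFC, and the lower counts 2 to 4, 1 to 6, 2 to 4 and 1 to 2. Of all genes, 3.47% to 10% were higher in Amy and 1.43% to 5.93% in Hippo. In CC and PFC these shares were 2.44% to 5.73% and 1.48% to 3.13%. The shares lower were 4.37% to 10.1%, 3.61% to 27.6%, 1.06% to 5.79% and 1.27% to 2.51%, in the order above. Called members were 0 to 1 in Amy, 0 to 1 in Hippo, 1 to 2 in CC and 0 in PFC. Of all 18193 genes, 78 to 112, 27 to 44, 52 to 63 and 39 to 43 were called. Genes differing between areas numbered 6 to 9, and 21 in control mice each time. Medians were 0.22 to 0.29 in Amy, -0.021 to -0.0020 in Hippo, -0.025 to 0.0032 in CC and 0.014 to 0.039 in PFC.

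With the replicate number as a block, 8 were higher and 2 lower in Amy, 0 and 0 in Hippo, 3 higher in CC, and 0 and 0 in PFC. With this block, 2.79% of all genes were higher and 3.62% lower in Amy, 0% and 0% in Hippo, and 1.9% higher in CC. In PFC, 0.22% of all genes were higher and 0.209% lower. Deviations of CMS and control arrays with the same number correlated at -0.065 to 0.027 over 12 pairs, none over 0.1. Those of 2 areas correlated at -0.24 to 0.11 over 36 pairs, 1 of them over 0.1. With 3 arrays per group, these correlations cannot settle whether a replicate number marks a mouse.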
